A study of Mus musculus with 6 samples.

Results

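The nuclear genes for the subunits of the oxidative phosphorylation complexes were followed in group 2 innate lymphoid cells (ILC2s) from the inflamed colon. Members were taken by symbol from the deposited expression table: the Nduf genes of complex I, Sdha to Sdhd of complex II, the Uqcr genes, Cyc1 and Cycs of complex III and cytochrome c, the Cox4 to Cox8 genes of complex IV and the Atp5 genes of complex V. This gave 89 of the 23268 genes in the table, with 40, 4, 10, 18 and 17 in complexes I to V. Of these, 82 had a mean of at least 1 FPKM (fragments scaled by transcript length and library total) and were tested among 12187 genes. The 7 others were Ndufa4l2, Ndufb11b, Sdhd, Uqcr11, Cox6a2, Cox7a2 and Cox8b. Ndufb4c and Ndufs5-ps, which the symbol rule also takes, are pseudogenes.

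ILC2s are tissue lymphocytes known for type 2 cytokines. Cells were taken by sorting from colons of C57BL/6 mice, 6 to 8 weeks old, after 6 days of 3% dextran sulfate sodium (DSS), a chemical that injures the gut lining and causes colitis, or of water. Each group has 3 libraries, made from full-length cDNA. No genetic change is named for either group, and neither the sorting gate nor the number of mice behind a library is stated in the sources used here, so a p-value measures the spread between these libraries, which may be technical.

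Oxidative phosphorylation takes place at the inner mitochondrial membrane. Complexes I and II pass electrons from NADH and succinate to ubiquinone, complex III hands them to cytochrome c, complex IV gives them to oxygen, and complex V, the ATP synthase, uses the proton gradient so built up to make ATP. Most subunits are encoded in the nucleus and a few in mitochondrial DNA, and the mitochondrially encoded subunits were not analysed here.

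The FPKM values rest on 12826645 to 23380504 fragments per control library and on 14993465, 19202418 and 10099848 fragments in DSS replicates 1, 2 and 3, so DSS replicate 3 is the shallowest. The libraries of the DSS group were less alike than those of the control group: Pearson's r of log2 values over genes was 0.90 between DSS replicates 1 and 3 and 0.958 to 0.980 among controls. DSS replicate 1 had 12.5% of its fragments on cytosolic ribosomal protein genes, against 7.33% to 7.61% in controls and 5.96% in DSS replicate 3. The mean FPKM of 1103 olfactory receptor genes was 0.962 in DSS replicate 3 and 0.583 in control replicate 3, against at most 0.182 in the other libraries. All 12 ILC2 marker genes used as a check had a mean of at least 1 FPKM.

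No subunit gene differed between DSS and control ILC2s by limma's test (adjusted p under 0.05 over all genes): 0 of 82 passed, where 27 of 12187 genes did, a background of 0.222%. At an unadjusted p under 0.05 there were 2, Atp5a1 and Cox7b2, against a background of 8.99%, and limma's voom on the recovered fragments also called 0 members (background 0.148%). The median log2 change of the members was 0.07, with 52 of 82 above 0 against 53.1% of all genes tested, whose median was 0.03. Every DSS library lay above every control library for 2 members, Cox7a2l and Cox7b2 (2.44%, background 6.35%). Every DSS library lay below every control library for 4 members, Atp5a1, Atp5b, Cyc1 and Ndufv1 (4.88%, background 9.6%). Both shares are below those of all genes.

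The small difference between the group means hides DSS libraries that went opposite ways. Together the members took 1.02%, 1.00% and 0.92% of the fragments in control replicates 1, 2 and 3. They took 1.5%, 0.921% and 0.688% in DSS replicates 1, 2 and 3. DSS replicate 1 lay above every control for 66 of 82 members (80.5%, background 25.8%) and below every control for 4 (background 43.5%). DSS replicate 3 lay below every control for 70 members (85.4%, background 23%) and above for 8 (background 50.7%). DSS replicate 2 was closer to the controls, above all of them for 12 members (background 24.2%) and below for 30 (background 30.4%). DSS replicate 1 was the highest and DSS replicate 3 the lowest of all 6 libraries for 60 members (73.2%, background 7.4%).

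On the log2(FPKM + 1) scale the members' median difference from the control mean was 0.75 in DSS replicate 1, -0.06 in replicate 2 and -0.46 in replicate 3. For all genes tested these medians were -0.17, -0.05 and 0.25, so in replicates 1 and 3 the members lay on the other side of 0 from the typical gene. Scaling by the median of ratios, which moved the all-gene medians to 0.02 and 0.06 in replicates 1 and 3, put the members' medians at 1.01 and -0.67. Scaling to an equal total put them at 0.48 and -0.37, with all-gene medians of -0.37 and 0.34. The median range across 3 libraries was 0.27 among controls and 1.37 among DSS libraries for the members, against 0.42 and 0.90 for all genes. The 83 cytosolic ribosomal protein genes, another large set of abundant short transcripts, had medians of 0.80, 0.19 and -0.34 in the 3 DSS libraries. Fewer cells that use a gene and less of its RNA per cell cannot be told apart in bulk libraries.

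**Figure D1:**
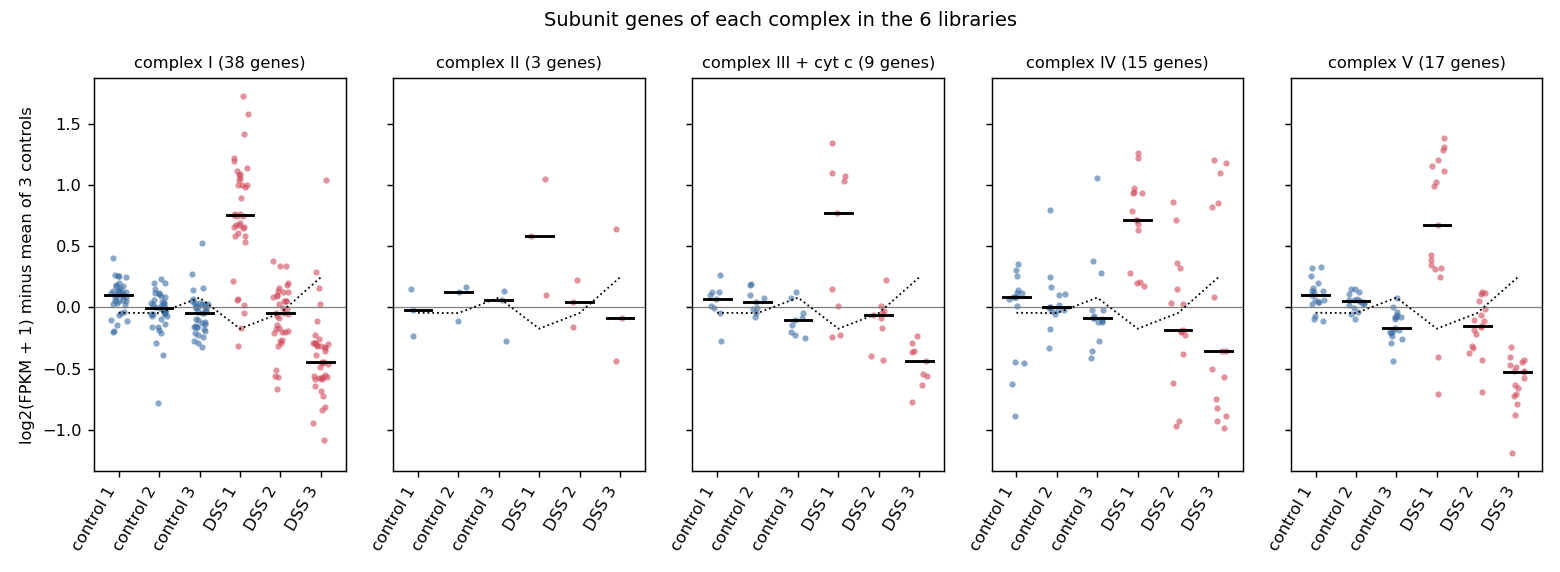
Difference of log2(FPKM + 1) from the mean of the 3 controls for each tested subunit gene (points), by complex, in the 6 libraries; black bars are medians of the complex and the dotted line joins the medians of all genes tested. In each of complexes I, III, IV and V the median was highest in DSS replicate 1 (0.67 to 0.77) and lowest in DSS replicate 3 (-0.36 to -0.52).

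Since most members had the same order across libraries, their promoters were searched for sites of factors known to drive nuclear respiratory genes. NRF-1 and GABP (also called NRF-2) are the classic activators of this gene set, YY1 acts on several of its promoters, and ERR-alpha works with PGC-1 coactivators. Windows of 250 bases before and 50 after the start site were available in RefSeq (build GRCm38.p6) for 69 of 89 members, Cyc1 and Cox4i1 not among them. The NRF-1 core CGCANGCG was found on either strand in 25 of 65 tested members (38.5%), in 19.1% of all 9381 tested genes with a window and in 9.2% of all 27025 genes with a window in RefSeq. The GABP letters CCGGAAG were in 15 of 65 (23.1%) against 20.5% and 9.9%. The YY1 letters AAGATGGC were in 10 of 65 (15.4%) against 5.5% and 3.2%. The ERR-alpha letters TCAAGGTCA were in 1 of 65 (1.5%) against 0.3% and 0.5%. In 0 member windows did letters of different motifs overlap. A match describes the sequence only.

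Printed here are windows upstream of the start site for cytochrome c, the subunits Cox6a1 and Atp5g3, which followed the library pattern, and Atp5b, which did not. Each reads 5′ to 3′ on the gene's strand, with motif letters on either strand in capitals and bases inside the GENCODE gene left out. Cycs is chr6:50566570-50566819 on the minus strand, with 1 NRF-1 core whose first base is at -61 from the start site. Cox6a1 is chr5:115348982-115349208 on the minus strand, with NRF-1 cores at -161 and -116 and a GABP match at -16, past the stretch shown. Atp5g3 is chr2:73911327-73911576 on the minus strand, with the ERR-alpha letters at -52 and an NRF-1 core just after the start site, past the stretch shown. Atp5b is chr10:128083057-128083272 on the plus strand, where none of the 4 motifs was found.
Cycs: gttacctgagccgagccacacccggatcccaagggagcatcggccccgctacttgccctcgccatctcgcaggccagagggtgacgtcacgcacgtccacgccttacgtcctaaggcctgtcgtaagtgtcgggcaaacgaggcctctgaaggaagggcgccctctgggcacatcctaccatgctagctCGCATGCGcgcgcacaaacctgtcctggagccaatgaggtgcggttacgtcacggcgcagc
Cox6a1: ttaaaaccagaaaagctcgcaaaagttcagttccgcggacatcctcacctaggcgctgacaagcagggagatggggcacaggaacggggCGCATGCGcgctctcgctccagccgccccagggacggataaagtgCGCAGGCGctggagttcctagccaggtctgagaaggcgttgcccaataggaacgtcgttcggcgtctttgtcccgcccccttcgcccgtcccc
Atp5g3: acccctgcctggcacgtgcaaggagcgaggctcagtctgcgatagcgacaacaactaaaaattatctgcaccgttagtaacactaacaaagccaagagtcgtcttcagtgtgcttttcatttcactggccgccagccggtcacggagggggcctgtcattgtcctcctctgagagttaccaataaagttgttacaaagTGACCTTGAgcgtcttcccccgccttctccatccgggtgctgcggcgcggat
Atp5b: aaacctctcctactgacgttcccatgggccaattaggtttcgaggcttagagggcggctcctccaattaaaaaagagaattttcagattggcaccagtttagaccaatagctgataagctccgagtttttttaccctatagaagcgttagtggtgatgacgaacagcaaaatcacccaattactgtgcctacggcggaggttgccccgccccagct

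The library pattern was present with and without these letters. The 25 tested members with an NRF-1 core had median differences from the control mean of 0.94, -0.06 and -0.52 in DSS replicates 1, 2 and 3. The 40 with a window but no core had 0.70, -0.04 and -0.47. The 10 members with the YY1 letters had 1.01, -0.01 and -0.47, and the 55 without had 0.72, -0.05 and -0.49. The 15 with the GABP letters had 0.97, -0.01 and -0.52, and the 50 without had 0.70, -0.05 and -0.45. The printed genes do not stand for the rest. Sdha has 3 NRF-1 cores and was highest in DSS replicate 3, while Ndufb11 has none of these letters in its window and followed the pattern.

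Complex I is the largest of the complexes and takes electrons from NADH. Its 38 tested members had a median log2 change of 0.11, with 26 above 0, but the median was -0.14 after adjustment for gene length. DSS replicate 1 was above every control for 32 of them and DSS replicate 3 below every control for 34. Ndufb11, an accessory subunit of the membrane arm, was at 181, 162 and 168 FPKM in controls and at 397, 177 and 114 FPKM in DSS replicates 1, 2 and 3. The DSS values lie above, among and below the controls, and the log2 change was 0.23 (SE 0.38, limma adjusted p = 0.907). Ndufb11 overlaps Rbm10 on the opposite strand by 117 bases and has a processed copy, and the libraries do not mark strand.

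The core subunits of complex I, which carry its electron path, were less uniform. Ndufv1, which binds NADH and the flavin, was at 60.8, 66.5 and 60.6 FPKM in controls and at 55.6, 60.5 and 52.1 FPKM in DSS libraries. Its groups just fail to touch (60.6 against 60.5), and the log2 change was -0.16 (SE 0.18, limma adjusted p = 0.867). Ndufs1, the largest iron-sulfur subunit, was at 10.3, 6.93 and 11.5 FPKM in controls and at 7.34, 10.9 and 11.7 FPKM in DSS libraries. Ndufs1 thus ran against the common pattern, lower in DSS replicate 1 than in replicate 3. Ndufs7, which holds the last iron-sulfur cluster before ubiquinone, was at 86.6, 99.4 and 93.3 FPKM in controls and at 187, 118 and 74.6 FPKM in DSS libraries. Ndufs3 was at 58.1, 60.9 and 61.2 FPKM in controls and at 102, 78.2 and 48.8 FPKM in DSS libraries. For both, DSS replicates 1 and 2 lay above the controls and replicate 3 below. Ndufs8 and Ndufv2, which also carry iron-sulfur clusters, ranged from 87.6 to 106 and from 27.6 to 34.1 FPKM in controls. They reached 142 and 52.7 FPKM in DSS replicate 1 and 69.3 and 22.4 FPKM in replicate 3.

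Among the accessory subunits, Ndufa9, which sits at the junction of the arms, was at 47.3, 62.5 and 54.6 FPKM in controls and at 56.9, 38.0 and 36.0 FPKM in DSS libraries. Replicates 2 and 3 were below all controls and replicate 1 among them (log2 change -0.34, SE 0.23, limma adjusted p = 0.747). Ndufs4, whose loss is a classic cause of complex I disease, was at 30.2, 36.2 and 33.9 FPKM in controls. It was at 69.6 FPKM in DSS replicate 1 and at 34.1 and 33.9 FPKM in replicates 2 and 3, within the control range. Ndufa6 was at 25.7, 26.9 and 31.2 FPKM in controls and at 62.5, 35.5 and 22.0 FPKM in DSS libraries, the common order. The abundant small subunits Ndufa2 and Ndufa1 followed it too. Ndufa2 was at 186 to 198 FPKM in controls and at 405, 198 and 130 FPKM in DSS libraries. Ndufa1 was at 228 to 305 FPKM in controls and at 422, 219 and 152 FPKM in DSS libraries.

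Complex II, succinate dehydrogenase, is also an enzyme of the tricarboxylic acid cycle and is wholly nuclear encoded. All 3 tested members had a log2 change above 0 (median 0.26), which without DSS replicate 1 became a median of -0.13. Sdha, the flavoprotein that oxidises succinate, was at 19.98, 18.8 and 22.4 FPKM in controls and at 22.0, 23.9 and 32.3 FPKM in DSS libraries. It was highest in DSS replicate 3, where most members were lowest, and the log2 change was 0.32 (SE 0.22, limma adjusted p = 0.744). Sdhb, the iron-sulfur subunit, was at 72.04, 95.3 and 88.5 FPKM in controls and at 128, 87.2 and 62.4 FPKM in DSS libraries, the order of the other complexes. Sdhc, a membrane anchor, was at 10.4, 10.3 and 7.50 FPKM in controls and at 20.3, 8.20 and 8.68 FPKM in DSS libraries, so only DSS replicate 1 left the control range. Sdhd, the other anchor, had 6, 1 and 6 fragments in controls and 0, 6 and 1 in DSS libraries. Uqcr11 of complex III and Cox7a2 of complex IV were likewise near 0, with at most 2 and 4 fragments in any library. These 3 genes encode standing parts of their complexes, and why the table holds so few fragments for them was not tested.

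Complex III passes electrons from ubiquinone to cytochrome c. Of its 9 tested members, cytochrome c included, 4 had a log2 change above 0 (median -0.03, but 0.0059 under median-of-ratios scaling), 6 were above every control in DSS replicate 1 and all 9 were below every control in DSS replicate 3. Cyc1, which encodes the cytochrome c1 of its electron path, was at 70.6, 62.5 and 60.8 FPKM in controls and at 55.04, 47.8 and 47.5 FPKM in DSS libraries. All DSS libraries were below all controls, with a log2 change of -0.36 (SE 0.19, 95% interval -0.78 to 0.06, limma adjusted p = 0.644). Uqcrc1, a core protein, was at 80.4, 111 and 103 FPKM in controls and at 82.3, 73.6 and 65.6 FPKM in DSS libraries. Its groups overlap through control replicate 1 (log2 change -0.40, SE 0.21, limma adjusted p = 0.644). Its partner Uqcrc2 was at 53.6, 52.6 and 60.5 FPKM in controls and at 56.0, 49.3 and 45.0 FPKM in DSS libraries. Uqcrfs1, the Rieske iron-sulfur protein, was at 118, 118 and 101 FPKM in controls and at 124, 109 and 76.6 FPKM in DSS libraries. Of these 4 longer subunits only Uqcrfs1 was above all controls in DSS replicate 1.

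The small subunits of complex III and cytochrome c had wider differences. Uqcrh, the hinge protein that helps cytochrome c1 meet cytochrome c, was at 237, 220 and 206 FPKM in controls and at 473, 257 and 188 FPKM in DSS libraries (log2 change 0.36, SE 0.31, limma adjusted p = 0.813). Uqcr10 was at 140 to 201 FPKM in controls and at 353, 163 and 107 FPKM in DSS libraries. Cycs, cytochrome c itself, was at 55.8, 57.7 and 54.1 FPKM in controls and at 115, 56.2 and 43.2 FPKM in DSS libraries (log2 change 0.23, SE 0.32, limma adjusted p = 0.892). The 3 controls of Cycs lie close together, while DSS replicate 1 was at 2.07 times and replicate 3 at 0.773 times their mean. Cycs has several near-identical processed copies, and how the authors assigned fragments shared with such copies is not given in the sources used here. In all, 24 members share at least 200 bases at 95% identity or more with another gene.

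Complex IV, cytochrome c oxidase, has core subunits from mitochondrial DNA surrounded by nuclear ones, several in tissue forms. Of its 15 tested members 11 had a log2 change above 0 (median 0.08, but -0.25 after adjustment for gene length). Its medians in DSS replicates 1, 2 and 3 were 0.72, -0.18 and -0.36 from the control mean. Cox4i1, the widely used form of its largest nuclear subunit, was at 782, 832 and 715 FPKM in controls and at 1268, 792 and 546 FPKM in DSS libraries. The DSS values span the controls on both sides, and the log2 change was 0.08 (SE 0.30, limma adjusted p = 0.964). Cox6a1 was at 435, 411 and 385 FPKM in controls and at 785, 351 and 207 FPKM in DSS libraries (log2 change -0.09, SE 0.41, limma adjusted p = 0.973). DSS replicate 1 was at 1.91 times and replicate 3 at 0.504 times the control mean of Cox6a1. Cox5a, Cox5b and Cox6b1 had the same order. Cox5a was at 50.1 to 58.3 FPKM in controls and at 83.7, 40.9 and 28.5 FPKM in DSS libraries. Cox5b was at 156 to 176 FPKM in controls and at 317, 169 and 129 FPKM in DSS libraries. Cox8a was at 570 to 672 FPKM in controls and at 1217, 795 and 483 FPKM in DSS libraries, the replicate 2 value above all controls.

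Cox7a2l, a factor that joins complexes III and IV into supercomplexes and of which C57BL/6 mice are known to make a shortened protein, was at 165, 152 and 155 FPKM in controls. It was at 272, 196 and 167 FPKM in DSS libraries, all above the controls, though replicate 3 by little (log2 change 0.40, SE 0.23, limma adjusted p = 0.681). Cox7b2, the other member with separated groups in that direction, was listed at 0, 0.832 and 1.01 FPKM in controls and at 2.71, 1.54 and 2.56 FPKM in DSS libraries (log2 change 1.06, SE 0.47, limma adjusted p = 0.547). These values rest on 0, 8 and 7 fragments in controls and 22, 16 and 14 in DSS libraries. The tissue forms of complex IV known from muscle, lung or testis were low: Cox4i2, Cox6b2, Cox7a1 and Cox8c had at most 3.51 FPKM in any library. The highest value of Cox4i2 was in control replicate 3, and those of Cox6b2, Cox7a1 and Cox8c were in DSS replicate 3, the libraries with the most fragments on olfactory receptor genes; its part in these values was not tested. Cox6a2, the muscle form, was listed at 0 in all controls and in DSS replicate 3, with 9 and 1 fragments in the others. Ndufa4, now counted as a complex IV subunit, was at 80.8, 88.9 and 60.2 FPKM in controls and at 127, 51.1 and 38.7 FPKM in DSS libraries, and its hypoxia-linked relative Ndufa4l2 was at most 0.671 FPKM.

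Complex V makes ATP in its F1 head, where the alpha and beta subunits form the catalytic ring. Of its 17 tested members 8 had a log2 change above 0 (median -0.03, but 0.0076 under median-of-ratios scaling), DSS replicate 1 was above every control for 15, and DSS replicate 3 was below every control for all 17. Atp5a1, the alpha subunit, was at 210, 231 and 220 FPKM in controls and at 135, 170 and 147 FPKM in DSS libraries. All DSS libraries were below all controls, and the means were 220 ± 10.6 and 151 ± 17.7 FPKM (SD, n = 3 libraries each), a log2 change of -0.55 (SE 0.19, 95% interval -0.98 to -0.12) that did not pass the test across genes (limma adjusted p = 0.377). Atp5b, the beta subunit, was at 481, 465 and 454 FPKM in controls and at 352, 375 and 346 FPKM in DSS libraries (log2 change -0.38, SE 0.19, limma adjusted p = 0.616). The genes of both ring subunits were thus lower in each DSS library, replicate 1 included. Atp5c1, the gamma subunit that turns inside the ring, was at 183, 175 and 146 FPKM in controls and at 219, 161 and 134 FPKM in DSS libraries, and did not share that separation. Atp5a1 overlaps Haus1 on the opposite strand by 129 bases, and Atp5b overlaps no gene.

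The membrane part and the stalks of complex V showed the common order. The 3 genes Atp5g1, Atp5g2 and Atp5g3 encode the same mature subunit c, the proton-carrying rotor ring. Atp5g3 was at 141, 137 and 128 FPKM in controls and at 331, 122 and 94.0 FPKM in DSS libraries. Atp5g2 was at 290, 312 and 244 FPKM in controls and at 349, 291 and 178 FPKM in DSS libraries. Atp5g1 was at 19.7, 23.4 and 20.1 FPKM in controls and at 34.1, 19.5 and 11.7 FPKM in DSS libraries. Each of these was highest in DSS replicate 1 and lowest in replicate 3. The authors' length for Atp5g1 is 4715 bases against a coding length of 408, so its FPKM cannot be ranked against the others. Atp5md, a small membrane subunit, was at 103, 93.2 and 74.8 FPKM in controls and at 112, 55.1 and 38.7 FPKM in DSS libraries (log2 change -0.52, SE 0.35, limma adjusted p = 0.744). Atp5o, the stalk protein that ties the head to the membrane, was at 125, 126 and 116 FPKM in controls and at 156, 90.6 and 73.9 FPKM in DSS libraries. Without DSS replicate 1 these 2 genes, Atp5o and Atp5md, were the members that limma called lower, in a fit that called 3.39% of all genes, and the members' median log2 change became -0.24. Without DSS replicate 3 that median was 0.36, and limma called 0 members (background 0.156%; 7 members at an unadjusted p under 0.05, background 14.5%).

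**Figure D2:**
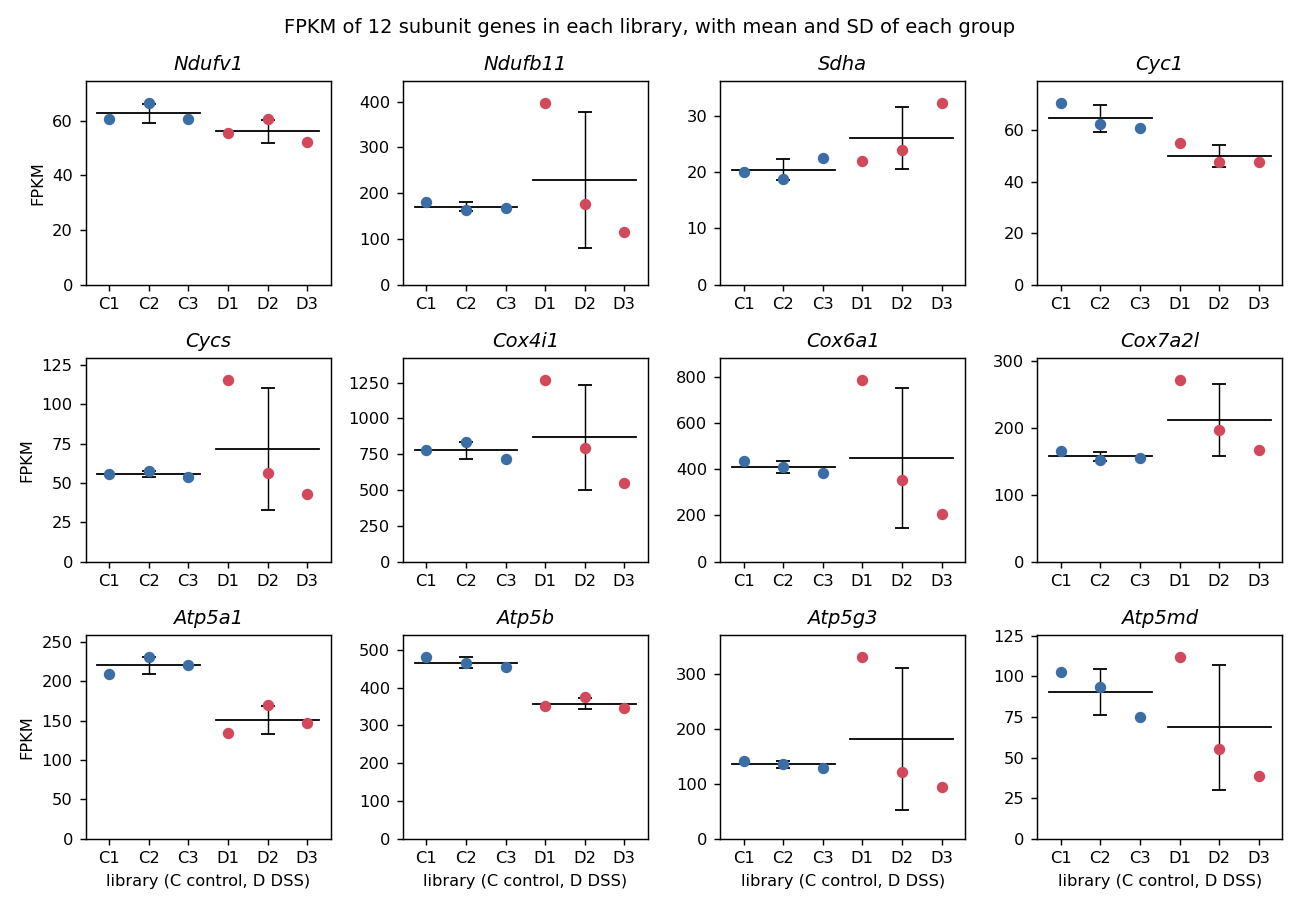
FPKM of 12 subunit genes in control (C1 to C3) and DSS (D1 to D3) libraries; lines are group means and bars 1 SD. Atp5a1, Atp5b, Cyc1 and Ndufv1 were lower in every DSS library, while Ndufb11, Cycs, Cox4i1, Cox6a1 and Atp5g3 were highest in DSS replicate 1 and lowest in replicate 3.

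**Figure D3:**
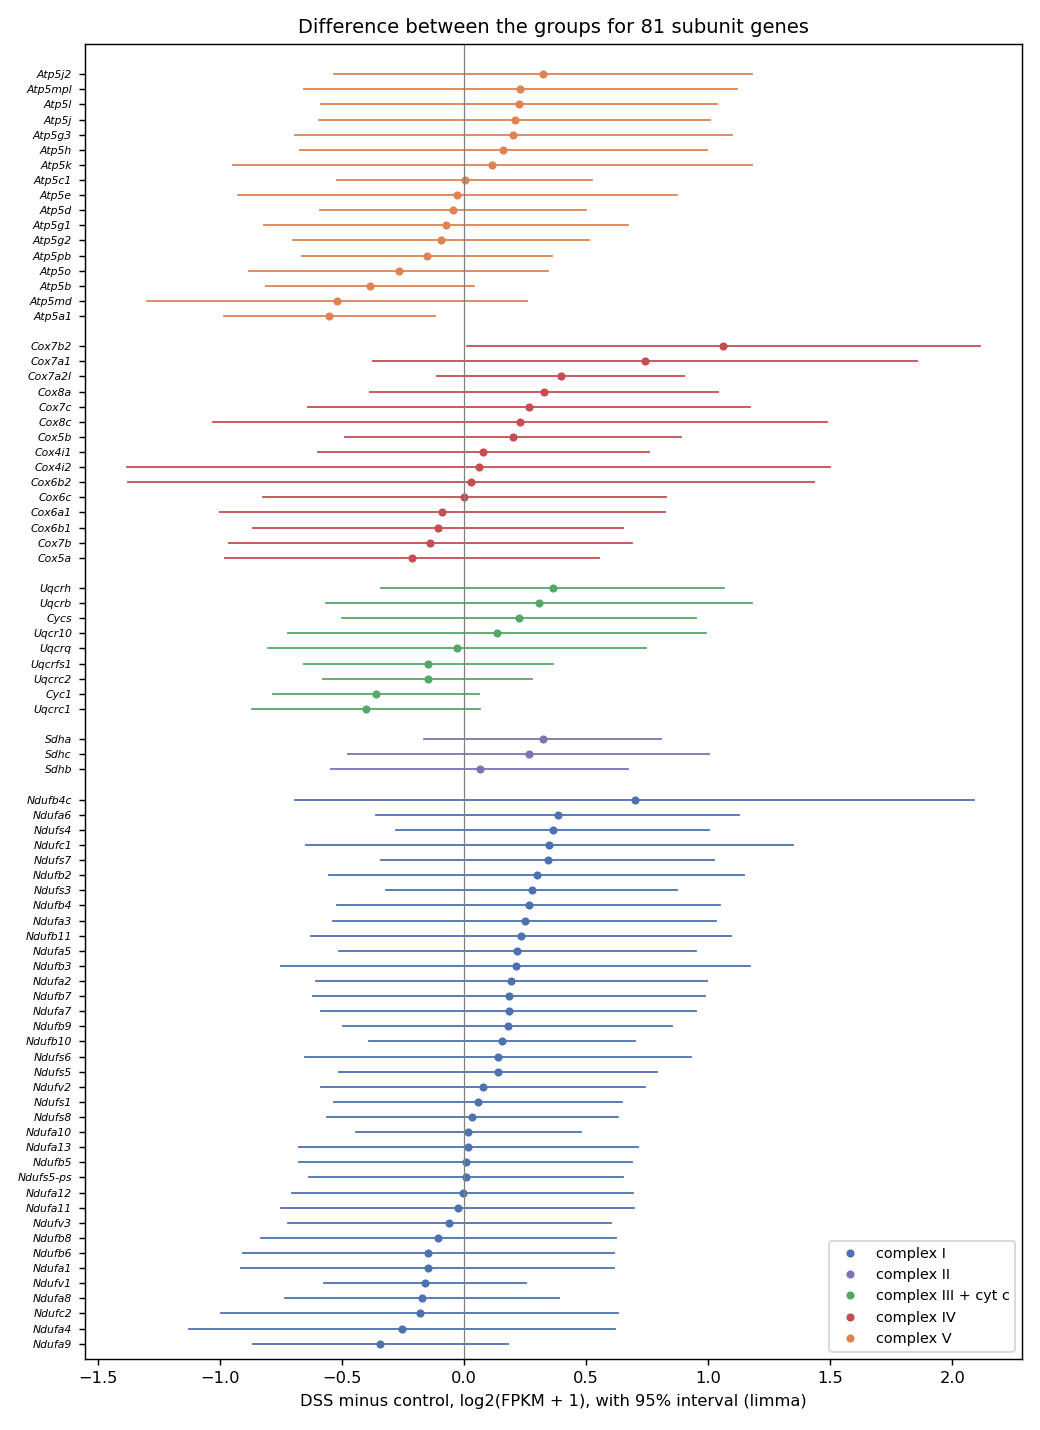
Difference between the group means on the log2(FPKM + 1) scale with its 95% interval (limma) for 81 of the 82 tested members, by complex. Of these, Atp5a1 and Cox7b2 alone have intervals that leave out 0, and none passed the adjusted threshold.

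The 4 members below all controls in DSS replicate 1, Atp5a1, Atp5b, Cyc1 and Ndufv1, have 1659, 1587, 975 and 1392 coding bases, against a median of 409.5 in the tested members. Coding lengths in GENCODE M21 were available for 72 of the 74 members with a mean of at least 5 FPKM. The 17 members with up to 300 coding bases had a median difference from the control mean of 1.07 in DSS replicate 1, and the 9 with over 1200 coding bases had -0.17. All genes in the same length classes had 0.94 and -0.54, so the trend is not special to the members. Across members Spearman's rho of coding length with the DSS replicate 1 difference was -0.71 (n = 72 genes), and across all genes it was -0.52 (n = 6352). In DSS replicate 3 the 17 shortest members had -0.64 and the 9 longest -0.29, against -0.40 and 0.11 for all genes. Genes share their library and are not replicates, so these are descriptions.

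Between 300 and 900 coding bases the members' medians lay farther from 0 than those of all genes in both libraries. Between 300 and 600 coding bases, 35 members had medians of 0.94 and -0.50 in DSS replicates 1 and 3, and 891 genes had 0.56 and -0.30. Between 600 and 900 coding bases, 8 members had 0.56 and -0.44, and 1002 genes had 0.14 and -0.15. Between 900 and 1200 coding bases, 3 members had 0.06 and -0.43, and 1020 genes had -0.06 and -0.05. After removal of each library's trend with the authors' gene length, the members' medians were 0.38, -0.09 and -0.76 in DSS replicates 1, 2 and 3. In control replicates 1, 2 and 3 they were then 0.20, 0.09 and -0.29, against 0.09, 0.01 and -0.09 before. Coding length was not used in this adjustment. DSS replicate 1 then lay above every control for 51 of 82 members (background 33.2%) and DSS replicate 3 below for 71 (background 36.6%). Atp5a1, Atp5b and Cyc1, but no longer Ndufv1, then had every DSS library below every control (3 of 82, background 9.75%), and the members' median log2 change was -0.14.

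**Figure D4:**
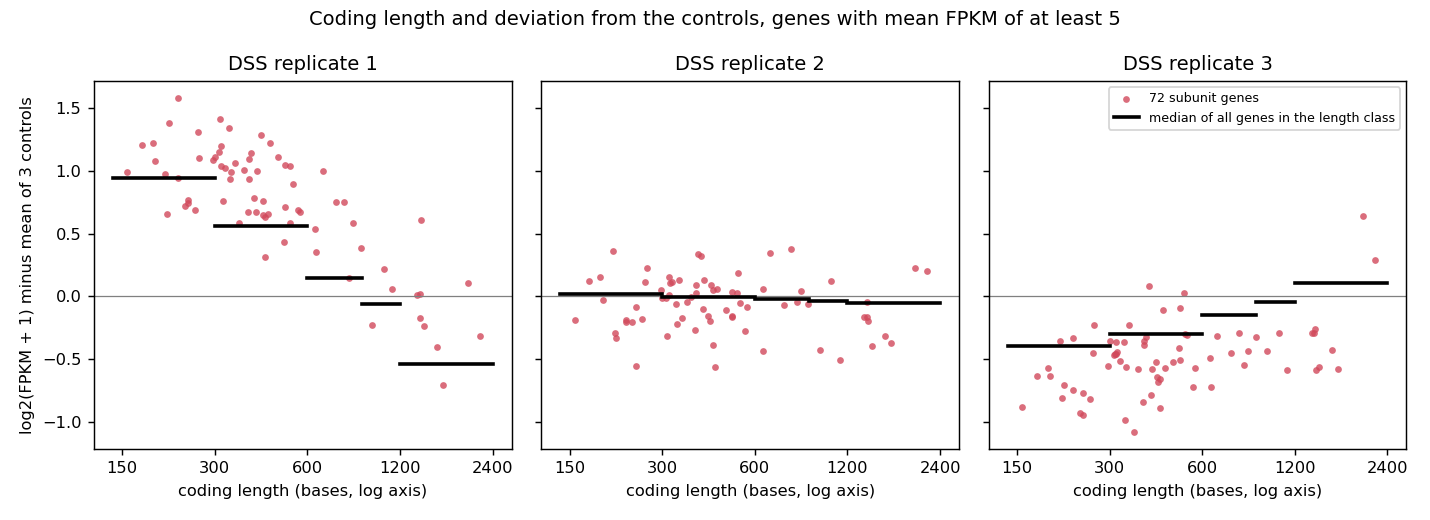
Coding length (log axis) against the difference of log2(FPKM + 1) from the control mean in each DSS library for 72 subunit genes (points), with the median of all genes in each length class (bars). In DSS replicate 1 short members lie highest, and in DSS replicate 3 most members lie below the median of their length class.

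The list taken as the catalytic core also holds Cycs and the nuclear complex IV subunits Cox4i1, Cox5a and Cox5b. Its 20 subunits are longer than the rest. Their 19 tested genes had a median coding length of 822 bases against 348 in the other members, and median differences of 0.54, -0.04 and -0.36 in DSS replicates 1, 2 and 3. The other 63 had 0.79, -0.10 and -0.52. DSS replicate 1 was above all controls for 12 of the 19 and for 54 of the 63.

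Genes that build or serve the chain were counted from lists, and 0 genes of any of them passed limma's adjusted threshold. Of 23 tested assembly factors of complex IV, 20 had a log2 change above 0 (median 0.24). Their median differences from the control mean were 0.78, 0.17 and -0.05 in DSS replicates 1, 2 and 3. DSS replicate 1 lay above every control for 17 of these 23 (background 25.8%) and DSS replicate 3 below for 9 (background 23%). Of 9 tested factors for complexes II and III, 7 had a log2 change above 0 (median 0.16), with median differences of 0.19, -0.01 and 0.13. Every DSS library lay above every control for 2 of these 9 (background 6.35%). Sdhaf1, which helps put iron-sulfur clusters into Sdhb, was at 114, 121 and 114 FPKM in controls and at 243, 188 and 140 FPKM in DSS libraries, all above the controls (log2 change 0.67, SE 0.23, limma adjusted p = 0.377). Complex I factors were even, with 8 of 15 above 0, and complex V factors had 5 of 7. All genes tested had 53.1% above 0 and a median of 0.03.

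Genes that feed the chain lay the other way. Of 19 genes of the tricarboxylic acid cycle and pyruvate entry, 17 had a log2 change below 0 (median -0.20). Pdhb, a subunit of pyruvate dehydrogenase, was at 61.4, 71.2 and 64.6 FPKM in controls and at 48.0, 48.3 and 45.1 FPKM in DSS libraries (log2 change -0.47, SE 0.18, limma adjusted p = 0.457). Of 23 carriers and electron entry genes, 19 were below 0 (median -0.11). Vdac1, the main channel of the outer membrane, was at 42.9, 34.1 and 42.5 FPKM in controls and at 24.6, 23.9 and 26.5 FPKM in DSS libraries (log2 change -0.64, SE 0.20, limma adjusted p = 0.295). Every DSS library lay below every control for 1 of the 19, Pdhb, and for 2 of the 23, Vdac1 among them (background 9.6%). In Pdhb and Vdac1 the DSS libraries were close to each other. Median differences of the tricarboxylic acid cycle list were -0.19, -0.08 and -0.23 in the 3 DSS libraries. These medians lack the split seen in the subunits, but the list's counts by library leaned that way. DSS replicate 1 lay above every control for 7 of the 19 (background 25.8%) and DSS replicate 3 below for 11 (background 23%). For the 23 carriers and electron entry genes these counts were 4 and 6. These 2 lists hold longer genes, with median lengths of 2636 and 2651 bases against 963 in the tested members. All genes of 2000 to 3000 bases with a mean of at least 5 FPKM had -0.32, -0.04 and -0.02 in DSS replicates 1, 2 and 3. The part of length in this contrast was not tested.

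Of 15 tested regulators of nuclear subunit genes and mitochondrial transcription, 11 had a log2 change below 0 (median -0.09). Every DSS library lay below every control for 3 of them (background 9.6%), and the 15 have a median length of 4042 bases. Gabpb1, the partner of Gabpa in the activator GABP, was at 41.0, 36.5 and 35.9 FPKM in controls and at 20.6, 18.6 and 19.9 FPKM in DSS libraries. Its mean was 37.8 ± 2.79 FPKM in controls and 19.7 ± 1.02 in DSS libraries (SD, n = 3 each), a log2 change of -0.91 (SE 0.19, limma adjusted p = 0.127). All DSS libraries were below all controls by about the same amount, so Gabpb1 did not follow the order of the subunits. Without DSS replicate 1 it passed limma's test (log2 change -0.94, adjusted p = 0.006, where the other alternatives ranged from 1.5e-05 to 0.631). Gabpa itself was at 3.88, 4.84 and 4.27 FPKM in controls and at 3.94, 4.56 and 3.95 FPKM in DSS libraries. Pprc1, a coactivator of the PGC-1 family, was at 10.1, 11.5 and 11.4 FPKM in controls and at 2.39, 5.95 and 9.70 FPKM in DSS libraries. Pprc1 was lowest in DSS replicate 1, where most subunits were highest. Nrf1 was at 6.04 to 10.1 FPKM in controls and at 10.9, 9.74 and 16.0 FPKM in DSS libraries, and Tfam, the packaging factor of mitochondrial DNA, at 4.79 to 5.11 and at 5.76, 4.39 and 4.30 FPKM.

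Markers of some other cells were more abundant in the DSS libraries. The 8 neutrophil markers summed to 3.02 to 6.95 FPKM in controls and 67.1 to 103 FPKM in DSS libraries, with S100a8, S100a9 and Retnlg called higher, while Cxcr2 and Ly6g had means under 1 FPKM. The 8 macrophage and monocyte markers summed to 12.2 to 16.99 and 20.1 to 43.2 FPKM, and the 10 epithelial markers to 19.4 to 36.7 and 50.2 to 53.5 FPKM. The 4 B and plasma cell markers in the table summed to 10.4 to 22.5 and 33.6 to 167 FPKM. T cell markers summed to 23.2 to 30.2 FPKM in controls and 21.3 to 56.7 FPKM in DSS libraries. ILC3 markers summed to 171 to 284 and 70.6 to 310 FPKM, so the DSS libraries differed among themselves in both. Median log2 changes were near 0 for T cell (0.02) and ILC3 (0.09) markers, -0.13 for stroma and -1.29 for dendritic cells. The last rests on 3 tested markers of 5, since Flt3 and Itgax had means under 1 FPKM. Xcr1 and Zbtb46 lay below every control in every DSS library (background 9.6%), and the other 1 had a log2 change above 0. The ILC2 markers summed to 6375 to 7292 FPKM in controls and 4877 to 7731 FPKM in DSS libraries, but 10 of 12 had a log2 change below 0 (median -0.30). For 4 of the 12, Rora and Icos among them, every DSS library lay below every control (background 9.6%), and 0 passed limma's adjusted threshold. The ILC2 markers' median differences from the control mean were -0.06, -0.37 and -0.51 in DSS replicates 1, 2 and 3, the same order of libraries as in the subunits. The part of other cells in the subunit levels was not tested.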

How the data were processed

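RNA sequencing of colonic ILC2s was done in 3 control and 3 DSS libraries, grouped by their titles. Per the labels' protocols, RNA came from TRIzol, cDNA from SMART-Seq HT and paired-end libraries from Nextera XT, which does not mark strand. Per the submitters' processing notes, cutadapt 1.9 and HISAT2 2.2.1 were run with build mm10; which counter and annotation followed is not given in the sources used here. FPKM values are what the authors deposited, which are fragments scaled by gene length and library total. Whole fragments were recovered for 22701 of 22701 genes above 0 (tolerance 0.001), and the length divisor equalled the longest GENCODE M21 transcript for 94.1% of 10096 well covered genes. A divisor longer than the transcripts present lowers a gene's FPKM in all libraries alike.

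Groups were compared with limma 3.58.1 in R 4.3.3 (two-sided, with a mean-variance trend) on log2(FPKM + 1) over genes with a mean of at least 1 FPKM, with Benjamini-Hochberg adjustment over all of them and a threshold of 0.05. Fold changes on this scale understate those of low genes. The members and lists were chosen with earlier results of these data known. Members named in the text are the 3 with the smallest p and the 2 with the highest mean FPKM in each complex, the catalytic core and the paralogue sets; of other lists, the 2 genes with the smallest p. Ndufb11, Atp5o, Gabpa, Nrf1 and Tfam were chosen after their values were seen, and some genes the rule names are given by counts alone; 1 member enters the counts and is not reported here by its values. Overlaps and coding lengths came from GENCODE M21 (GRCm38, the same build as mm10; coordinates for 84 of 89 members), copies from blastn 2.17.0 (at least 200 bases at 95% identity) and promoters from RefSeq.

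Deviations of same-numbered control and DSS libraries from their group means correlated at 0.189, 0.262 and 0.545, each over 0.1. Control replicate 1 with DSS replicate 2 (0.345) and control replicate 2 with DSS replicate 1 (0.101) were over 0.1 too. The labels state no pairing, so the main fit used none. Pairing by number entered only as the replicate block, an alternative fit. No libraries agreed within sampling noise. Fragment recovery and the limma fit were tested on simulated data. Alternatives were other pseudocounts, filters, scalings, weights, the replicate block and leaving out libraries; voom on recovered fragments, length adjustment, leaving out both replicates 3 and the gene-by-gene weights were chosen after seeing the data. Python 3.11.15, pandas 2.3.3 and matplotlib 3.10.9 were used.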

Additional observations from a re-analysis of the deposited data

How the results depend on the processing

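The count of genes called over all genes, 27, was 14 with an equal total, 9 with median-of-ratios scaling and 4 without a trend. It was 5 without both replicates 3, 635 with library weights by the gene-by-gene update and 3286 with library weights. The fit of the latter weights did not converge and gave DSS replicate 2 a weight of 17.8, against 0.147 to 1.84 in the other libraries. Leaving out 1 library gave 4 to 413, the highest without DSS replicate 1. Members called, 0, were 1 (Atp5md) and 17 under those 2 kinds of weights and 0 to 2 on leaving out 1 library. Leaving out 1 library moved the median log2 change of all members from -0.24 to 0.36, with complex I at -0.23 to 0.38, complex II at -0.13 to 0.37, complex III at -0.29 to 0.34, complex IV at -0.16 to 0.37 and complex V at -0.34 to 0.28; each is lowest without DSS replicate 1, so no direction for a complex rests on all libraries. Length adjustment gave medians of -0.14, 0.32, -0.18, -0.25 and -0.17 for complexes I, II, III, IV and V. In the same order the gene-by-gene weights gave -0.02, -0.0008, -0.13, -0.19 and -0.14. The other weights gave -0.03, 0.02, -0.10, -0.19 and -0.15. With the replicate block 0 members and 22 genes were called and the members' median stayed at 0.07. The block changed no call of a named member. Directions reversed for Cycs (0.23; -0.0036 with library weights, -0.18 to 0.52 on leaving out 1 library), Cox4i1 (0.08; -0.25 length-adjusted, -0.0246 and -0.0034 with the gene-by-gene and other weights, -0.0535 with quantile normalization, -0.24 to 0.37 on leaving out 1 library), Ndufb11 (0.23; -0.0381 length-adjusted, -0.26 to 0.64 on leaving out 1 library), Uqcrh (0.36; -0.0037 to 0.66 on leaving out 1 library) and Cox6a1 (-0.09; 0.31 without both replicates 3, -0.6027 to 0.36 on leaving out 1 library). The negative ends for these genes come without DSS replicate 1 and, for Cox6a1, the positive end without DSS replicate 3. The cause was not tested. Atp5a1, Atp5b, Cyc1, Uqcrc1 and Ndufv1 stayed below 0 and Cox7a2l and Sdha above 0 in every alternative run. Counts near 0, as for Sdhd, Uqcr11 and Cox7a2, allow no comparison at this depth.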
